A study of Rattus norvegicus with 8 samples.

Results

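The BCL2 family holds the proteins that decide whether the outer mitochondrial membrane is opened during apoptosis, and 10 of its genes were followed here in the cervix of pregnant rats. They were taken by symbol from the deposited table, which lists 29884 genes, and all 10 had a row and passed the filter on low counts, among 16117 genes tested. By role, 4 are pro-survival (Bcl2, Bcl2l1, Mcl1 and Bcl2a1) and 6 are pro-death: the effectors Bax and Bak1, and the BH3-only genes Bcl2l11, Bid, Bbc3 and Pmaip1.

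The pro-survival proteins hold the effectors and the BH3-only proteins in check by binding them through a groove on their surface. BH3-only proteins are made or activated in response to stress, damage or death receptor signals and free or directly activate BAX and BAK, which then form pores that let cytochrome c out of the mitochondrion and start the caspase cascade. In the pregnant cervix, a tissue of fibroblasts, smooth muscle, epithelium and resident or arriving leukocytes, the same genes set the lifespan of both the stromal cells and the leukocytes.

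All animals were pregnant wild-type Sprague-Dawley rats. On gestational day 17 they received an intraperitoneal injection, of lipopolysaccharide (LPS, the endotoxin that coats Gram-negative bacteria) at 100 µg/kg in one group and of an equal volume of phosphate-buffered saline (PBS) in the other, and the cervix was taken 12 hours later. RNA of whole tissue was sequenced in 4 samples per group, which the series' design text calls biological replicates. In such bulk samples, fewer cells of a type and less RNA per cell cannot be told apart.

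Total counts ran from 33191039 to 40634384 in PBS and from 39580706 to 40408153 in LPS. The cervix and uterus markers Pgr, Esr1, Hoxa10, Hoxa11, Hoxa13 and Pax8 summed to 578 to 735 CPM (counts scaled to library size) in PBS and 545 to 783 CPM in LPS. These markers were thus found in each library. As a joint list they do not tell cervix from uterus, and no other tissue was set beside them. PBS replicate 4 stood apart from the other PBS libraries in its smooth muscle markers (4443 CPM summed against 10139 to 12358 CPM). Across genes, the deviations of PBS replicate 1 and LPS replicate 2 from their group means had a correlation of 0.24, the highest of any pair across the groups and close to the 0.21 of PBS replicate 4 and LPS replicate 4. The counts below were also computed with PBS replicate 1 and LPS replicate 2 both left out. The 13 protein-coding transcripts of the mitochondrial genome made up 5.69 to 7.75% of counts in PBS and 4.33 to 5.11% in LPS. Their part in the results below was not tested.

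12 hours after LPS, Bcl2a1 and Bid were higher and Bcl2l1 was lower, and the other 7 members did not pass the test. Bcl2a1 rose 3.67-fold and Bid 2.31-fold, while Bcl2l1, which encodes BCL-X, fell 2.24-fold. The pro-survival genes thus went in opposite directions, with 1 called higher and 1 called lower of 4, and 1 of the 6 pro-death genes was called higher. The threshold was 0.05 on the p of edgeR's quasi-likelihood test after Benjamini-Hochberg adjustment over all 16117 genes. Over those genes 9.49% were called higher and 7.45% lower, and 16.9% in either direction. The groups did not overlap in CPM for 3 of the 10 members, the called ones, and for 23.4% of all genes. Read against these shares, 2 of 10 members higher and 1 of 10 lower are no result about the family as a whole. The 3 calls held in each of the 17 alternative analyses, among them those without any one library and the one without both PBS replicate 1 and LPS replicate 2, in which Bax was called as well, giving 3 members higher and 1 lower.

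**Figure D1:**
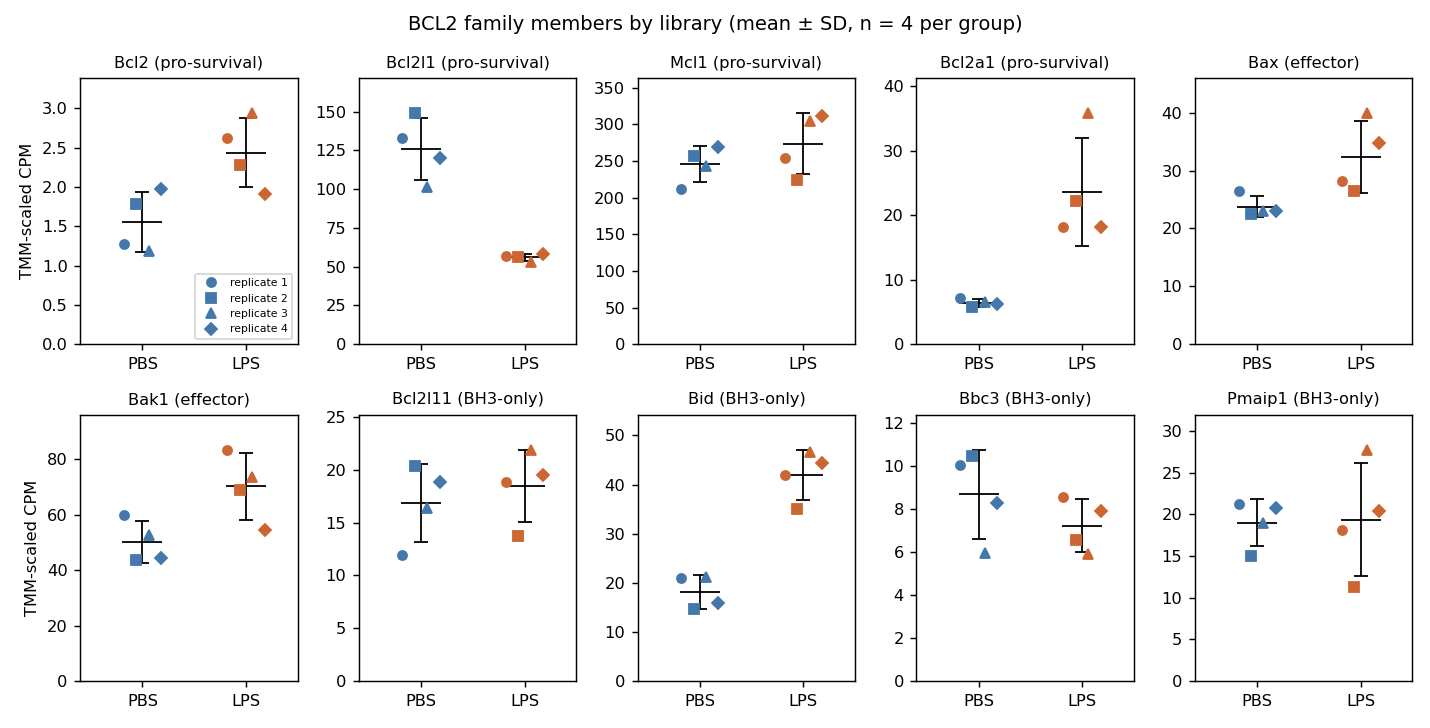
TMM-scaled CPM (vertical axis of each panel, starting at 0) of the 10 members in PBS and LPS. Points are libraries, with a marker shape per replicate number, and bars are mean ± SD, n = 4 per group. The groups are apart for Bcl2l1, Bcl2a1 and Bid and overlap for the other 7.

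The pro-survival genes carried both the largest rise and the only called fall. Bcl2a1 encodes A1 (BFL-1), a short-lived protein best known from leukocytes and induced by NF-kB. Its level, in CPM scaled between libraries with edgeR's TMM factors, was 7.18, 5.79, 6.53 and 6.17 in PBS replicates 1 to 4 and 18.1, 22.2, 35.8 and 18.1 in LPS replicates 1 to 4. Each LPS library thus lay far above each PBS library, and LPS replicate 3 stood above the other 3. The means were 6.42 ± 0.589 and 23.6 ± 8.40 CPM (SD, n = 4 per group). On the log2 scale the fold change was 1.88 with an SE of 0.23 (edgeR, adjusted p = 0.00180). Without LPS replicate 3 it was 1.60 (adjusted p = 0.000965).

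Bcl2l1 encodes BCL-X, which keeps many cell types alive, red cell precursors among them. Its CPM were 133, 149, 101 and 120.1 in PBS replicates 1 to 4 and 57.1, 56.5, 53.1 and 58.0 in LPS replicates 1 to 4. Each LPS library held less than each PBS library, and the LPS libraries lay within 1.09-fold of each other, against 1.47-fold in PBS. The means were 126 ± 20.1 and 56.2 ± 2.16 CPM. The log2 fold change came to -1.16, with an SE of 0.12 and an adjusted p of 0.000814. Splicing of Bcl2l1 gives a long pro-survival and a short pro-death form, and counts per gene do not separate them.

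Mcl1, a short-lived protein that many cells need at all times, had 212, 257, 243 and 269 CPM in PBS and 255, 224, 305 and 311 CPM in LPS. The groups overlapped, and the log2 fold change was 0.16 (95% interval -0.13 to 0.45, adjusted p = 0.429). Bcl2, the founding member, rested on 48 to 116 counts per library. It had 1.28, 1.78, 1.18 and 1.98 CPM in PBS and 2.62, 2.28, 2.94 and 1.91 CPM in LPS, with LPS replicate 4 below the highest PBS library. Its log2 fold change was 0.65 (95% interval 0.044 to 1.25, adjusted p = 0.129). The 95% intervals are those of each gene alone and are not adjusted for the number of genes tested.

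Both effectors had values above 0 that missed the threshold. BAX waits in the cytosol and moves to the mitochondrion when activated. Bax CPM were 26.5, 22.5, 23.0 and 23.0 in PBS and 28.3, 26.4, 39.9 and 34.8 in LPS, and only LPS replicate 2, at 26.4 CPM, overlapped with PBS replicate 1. The log2 fold change was 0.45 (95% interval 0.13 to 0.76, adjusted p = 0.0566). Bax was called with DESeq2 (adjusted p = 0.0260), when LPS replicate 2 was left out (log2 fold change 0.53, adjusted p = 0.0386), and when PBS replicate 1 went with it (0.58, adjusted p = 0.0370). Other removals moved it away from the threshold. With 1 library left out, its log2 fold change ranged from 0.33 to 0.53. Its adjusted p (edgeR) ranged from 0.0386 to 0.146, the largest without PBS replicate 2.

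BAK sits in the mitochondrial membrane at all times. Bak1 CPM were 59.9, 43.7, 52.7 and 44.2 in PBS and 83.5, 69.1, 73.8 and 54.6 in LPS, and LPS replicate 4 lay within the PBS range. The log2 fold change was 0.49 (95% interval 0.14 to 0.83, adjusted p = 0.0576). It was called with DESeq2 (adjusted p = 0.0255), with quality-weighted limma-voom (adjusted p = 0.0357), without LPS replicate 4 (log2 fold change 0.59, adjusted p = 0.0265) and without PBS replicate 1 (log2 fold change 0.58, adjusted p = 0.0376). Other removals moved it away from the threshold. With 1 library left out, its log2 fold change ranged from 0.39 to 0.59. Its adjusted p (edgeR) ranged from 0.0265 to 0.150, the largest without PBS replicate 2.

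Among the BH3-only members, only Bid was called. BID links death receptors to the mitochondrion: caspase-8 cuts it, and the cut form activates BAX and BAK. Bid CPM were 21.0, 14.6, 21.2 and 15.8 in PBS and 41.9, 35.0, 46.7 and 44.5 in LPS, so that each LPS library lay above each PBS library. The means were 18.1 ± 3.46 and 42.0 ± 5.08 CPM. The log2 fold change came to 1.21, with an SE of 0.15 and an adjusted p of 0.00191. Cutting of BID by caspases is not seen in RNA.

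The other 3 BH3-only members overlapped between the groups. Bcl2l11 encodes BIM, which ends the life of leukocytes deprived of survival factors. It ranged from 12.0 to 20.4 CPM in PBS and from 13.8 to 21.9 CPM in LPS (log2 fold change 0.13, 95% interval -0.31 to 0.57, adjusted p = 0.679). Bbc3 encodes PUMA, a target of p53. It ranged from 5.94 to 10.5 CPM in PBS and from 5.90 to 8.57 CPM in LPS (log2 fold change -0.26, 95% interval -0.74 to 0.21, adjusted p = 0.418). Pmaip1 encodes NOXA, a p53 target that binds MCL-1. It ranged from 15.0 to 21.2 CPM in PBS and from 11.2 in LPS replicate 2 to 27.7 CPM in LPS replicate 3 (log2 fold change 0.028, 95% interval -0.54 to 0.59, adjusted p = 0.952). Its spread of 2.47-fold within LPS was the widest of any member in either group. The sign of the log2 fold change of Bcl2l11 turned without PBS replicate 1 (-0.0070), and that of Pmaip1 without LPS replicate 3 (-0.20) or PBS replicate 2 (-0.069).

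**Figure D2:**
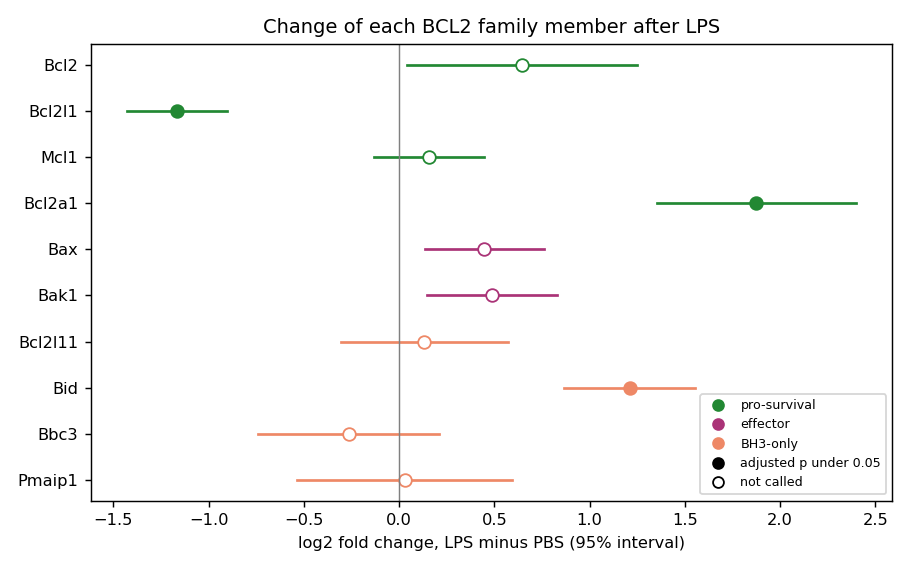
Log2 fold change of each member, LPS minus PBS (horizontal axis), with its 95% interval as a line. Colours mark roles, and filled points have an adjusted p under 0.05: Bcl2a1 at 1.88, Bid at 1.21 and Bcl2l1 at -1.16.

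Promoter windows of 300 bases, from 250 before to 50 after an annotated start, were available from RefSeq on build GRCr8 for 8 members, Bcl2l1 with 4 starts, and not for Bax or Bbc3. The sequence is not that of the build named for the counts (mRatBN7.2). The windows of the 3 called members and of Mcl1 are shown, for Bcl2l1 only 2 of its 4. They let the called genes and an uncalled pro-survival gene be read side by side. Capitals mark matches, on either strand, to the kappaB site of NF-kB, the p53 half-site, AP-1 (TGANTCA), the STAT site GAS (TTCNNNGAA), ISRE (GAAA and again GAAA after 2 bases of any kind), FOXO (GTAAACA), CRE (TGACGTCA) or the CHOP-ATF composite (TGATGCAA). All run 5′ to 3′ on the strand of the gene.
Bcl2a1, chr8:98596556-98596855, plus strand: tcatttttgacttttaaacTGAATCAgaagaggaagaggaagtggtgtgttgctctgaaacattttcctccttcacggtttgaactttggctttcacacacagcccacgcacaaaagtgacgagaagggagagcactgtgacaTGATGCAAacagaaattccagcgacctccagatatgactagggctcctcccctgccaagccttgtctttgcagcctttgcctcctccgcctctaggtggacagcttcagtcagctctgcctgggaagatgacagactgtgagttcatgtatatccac
Bcl2l1, most upstream start, chr3:161764726-161765025, minus strand: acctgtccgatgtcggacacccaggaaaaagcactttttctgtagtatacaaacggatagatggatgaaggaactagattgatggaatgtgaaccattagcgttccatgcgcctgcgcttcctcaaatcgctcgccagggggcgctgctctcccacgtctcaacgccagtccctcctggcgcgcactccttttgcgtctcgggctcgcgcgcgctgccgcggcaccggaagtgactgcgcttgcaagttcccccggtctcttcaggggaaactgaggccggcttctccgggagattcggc
Bcl2l1, inner start, chr3:161763336-161763635, minus strand: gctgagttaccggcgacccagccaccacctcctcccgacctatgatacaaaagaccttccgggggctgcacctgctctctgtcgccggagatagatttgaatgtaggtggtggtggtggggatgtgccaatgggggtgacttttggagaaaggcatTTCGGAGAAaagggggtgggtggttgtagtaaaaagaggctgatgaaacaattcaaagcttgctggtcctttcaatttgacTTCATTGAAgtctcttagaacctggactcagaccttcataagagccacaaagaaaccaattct
Bid, chr4:155808270-155808569, minus strand: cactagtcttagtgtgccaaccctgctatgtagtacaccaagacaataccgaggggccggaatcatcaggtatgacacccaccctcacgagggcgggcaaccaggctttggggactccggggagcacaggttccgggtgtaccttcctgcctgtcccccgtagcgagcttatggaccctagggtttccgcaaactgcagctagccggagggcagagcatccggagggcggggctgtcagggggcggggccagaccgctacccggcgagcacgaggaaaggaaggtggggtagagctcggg
Mcl1, chr2:185907918-185908217, plus strand: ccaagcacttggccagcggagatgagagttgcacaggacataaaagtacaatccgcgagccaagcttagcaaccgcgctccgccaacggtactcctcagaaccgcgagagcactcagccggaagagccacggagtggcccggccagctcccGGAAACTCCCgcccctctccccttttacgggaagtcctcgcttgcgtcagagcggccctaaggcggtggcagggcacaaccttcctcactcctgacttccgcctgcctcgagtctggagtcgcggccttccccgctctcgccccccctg

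The Bcl2a1 window held an AP-1 match, whose letters read as a match on both strands, and a CHOP-ATF composite. Of 33469 RefSeq windows of this length, 7.33% held an AP-1 match and 0.795% the composite. The most upstream Bcl2l1 window and the Bid window held 0 of these 8 motifs, and the inner Bcl2l1 start had 2 GAS matches, a motif held by 8.87% of windows. Neither overlapped another of the motifs, and a further Bcl2l1 window that overlaps this one shares them. The remaining Bcl2l1 window, not shown, held 0 of these 8 motifs. Kappa-B matches stood in the windows of Mcl1 and Pmaip1, both of which missed the threshold, and in 4.18% of all windows. That of Mcl1 overlaps a GC box (GGGCGG, in 33.1% of all windows). A FOXO match stood in that of Bcl2l11 (3.78% of all windows). No window of a member held the p53 half-site (7.98% of all), ISRE (3.92%) or CRE (1.83%). These are matches of letters in a short window and say nothing of binding.

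Set side by side, the pro-survival members had a median log2 fold change of 0.40 and the pro-death members one of 0.29, against 0.010 over all genes tested. For each library, the mean log2 CPM of each role was taken relative to its PBS mean. Pro-survival minus pro-death was -0.15, 0.15, -0.12 and 0.12 in PBS replicates 1 to 4 and -0.097, 0.23, 0.100 and -0.11 in LPS replicates 1 to 4. The balance averaged over the genes thus overlapped between the groups. Ratios that hold Bcl2l1, the member called lower, did not overlap, which restates its call. Relative to the PBS mean, the log2 ratio of Bcl2a1 to Bcl2l1 was -0.40 to 0.33 in PBS and 2.60 to 3.72 in LPS. That of Mcl1 to Bcl2l1 was -0.30 to 0.29 in PBS and 1.02 to 1.55 in LPS. These values describe the 10 genes chosen and were not tested as scores.

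Ratios to Bax, commonly used as a measure of this balance, differed by pro-survival gene. The log2 ratio of Bcl2l1 to Bax lay between -0.25 and 0.33 in PBS and between -1.98 and -1.30 in LPS, a mean difference of -1.58. The log2 ratio of Bcl2 to Bax lay between -0.41 and 0.42 in PBS and between -0.23 and 0.53 in LPS, with overlap. The log2 ratio of Mcl1 to Bax lay between -0.37 and 0.18 in PBS and between -0.43 and -0.20 in LPS, also with overlap. Each is relative to its PBS mean, so that gene length plays no part.

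**Figure D3:**
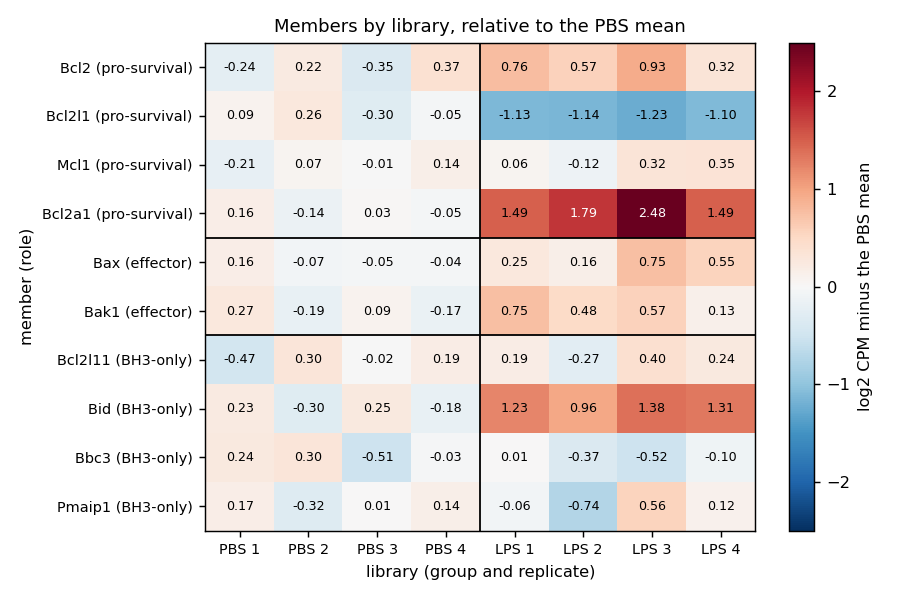
Log2 CPM of each member in each library, relative to the PBS mean of that member (colour and printed value). Rows are members grouped by role and columns are libraries. Bcl2l1 is between -1.23 and -1.10 in the LPS libraries and Bcl2a1 between 1.49 and 2.48.

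Among the LPS libraries, LPS replicate 3 had the highest LPS value of 6 of the 10 members (Bcl2, Bcl2a1, Bax, Bcl2l11, Bid and Pmaip1) and the lowest of Bcl2l1 and Bbc3. LPS replicate 2 had the lowest LPS value of 5 (Mcl1, Bax, Bcl2l11, Bid and Pmaip1). These counts describe the 10 members and were not set against other genes. The calls of Bcl2a1, Bid and Bcl2l1 did not rest on either, with log2 fold changes across the 8 analyses without 1 library of 1.60 to 1.98, 1.12 to 1.30 and -1.25 to -1.07.

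Some markers of other cell types also differed between the groups. For their counts, the shares over all genes tested were 9.49% called higher and 7.45% called lower. Of 12 neutrophil markers, 8 were tested, and 7 were called higher and 0 lower, while Ltf had no count in any library and Elane, Camp and Ngp fell below the filter. Their sum was 40.2 to 72.2 CPM in PBS and 731, 443, 923 and 1653 CPM in LPS replicates 1 to 4. Of 11 macrophage and monocyte markers, 7 were called higher and 1 lower, and their sum was 730.2 to 1128 CPM in PBS and 1460.1, 2178, 1840 and 1671 CPM in LPS replicates 1 to 4. Of 12 markers of T, NK and B cells, 10 were tested and 3 were called higher and 0 lower, with sums of 80.4 to 136 CPM in PBS and 77.8 to 128 CPM in LPS. Most of this sum was Cd4, at 71.8 to 124.7 CPM in PBS and 62.1 to 109.5 CPM in LPS, which was not called (log2 fold change -0.24). The overlap of the sums therefore says little of the other markers of this list. Of the 10 tested, 6 had log2 fold changes above 0 and 4 below, with a median of 0.44. Beside these sums, Bcl2a1 was at 18.1, 22.2, 35.8 and 18.1 CPM in LPS replicates 1 to 4. Whether its order over so few libraries follows that of either leukocyte sum was not tested. Adgre1 alone made up 591 CPM of the macrophage sum of replicate 2, its highest level in any library. Bid was at 41.9, 35.0, 46.7 and 44.5 CPM in LPS replicates 1 to 4, lowest in replicate 2. Single macrophage markers differed in their order over these libraries. Cd14 was at 232, 151, 318 and 221 CPM, and Mrc1 at 166, 239, 216 and 165 CPM. The part of leukocytes in the rise of Bcl2a1 and Bid was not tested.

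Beside the fall of Bcl2l1, 3 of 5 tested red cell markers (of 6 listed), 5 of 7 smooth muscle markers, 1 of 6 tested squamous epithelium markers (of 9 listed) and 1 of 6 endothelium markers were called lower, and 0 markers of these 4 lists were called higher. Of 6 fibroblast markers 4 were called higher and 0 lower, and of the 6 cervix and uterus markers 1 higher and 2 lower. The shares over all genes were 9.49% higher and 7.45% lower. The red cell sum ran from 505 to 1618 CPM in PBS and from 84.5 to 474 CPM in LPS. PBS replicate 3 had both the lowest red cell sum and the lowest Bcl2l1 level of the PBS libraries, at 505 and 101 CPM, and LPS replicate 3 had the highest red cell sum of the LPS libraries and the lowest Bcl2l1 level, at 474 and 53.1 CPM. The smooth muscle sum was 10139 to 12358 CPM in PBS replicates 1 to 3, 4443 CPM in PBS replicate 4, where Bcl2l1 was at 120.1 CPM, and 3686 to 5397 CPM in LPS. The squamous epithelium sum was 4838 to 9003 CPM in PBS and 3158 to 4179 CPM in LPS. Much of this difference lay in Krt13, which fell from 1383 to 3536 CPM in PBS to 54.3 to 162 CPM in LPS. The basal keratin Krt5 did not pass (log2 fold change -0.30, adjusted p = 0.339). Of the 6 tested squamous epithelium markers, 2 had log2 fold changes above 0 and 4 below. The sums of fibroblast markers were 11812 to 14859 CPM in PBS and 16829 to 26533 CPM in LPS, and those of endothelium markers 282 to 630.0 CPM and 302 to 470.3 CPM. The part of the red cell, smooth muscle, epithelial, fibroblast and endothelium cells in the fall of Bcl2l1 was not tested.

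**Figure D4:**
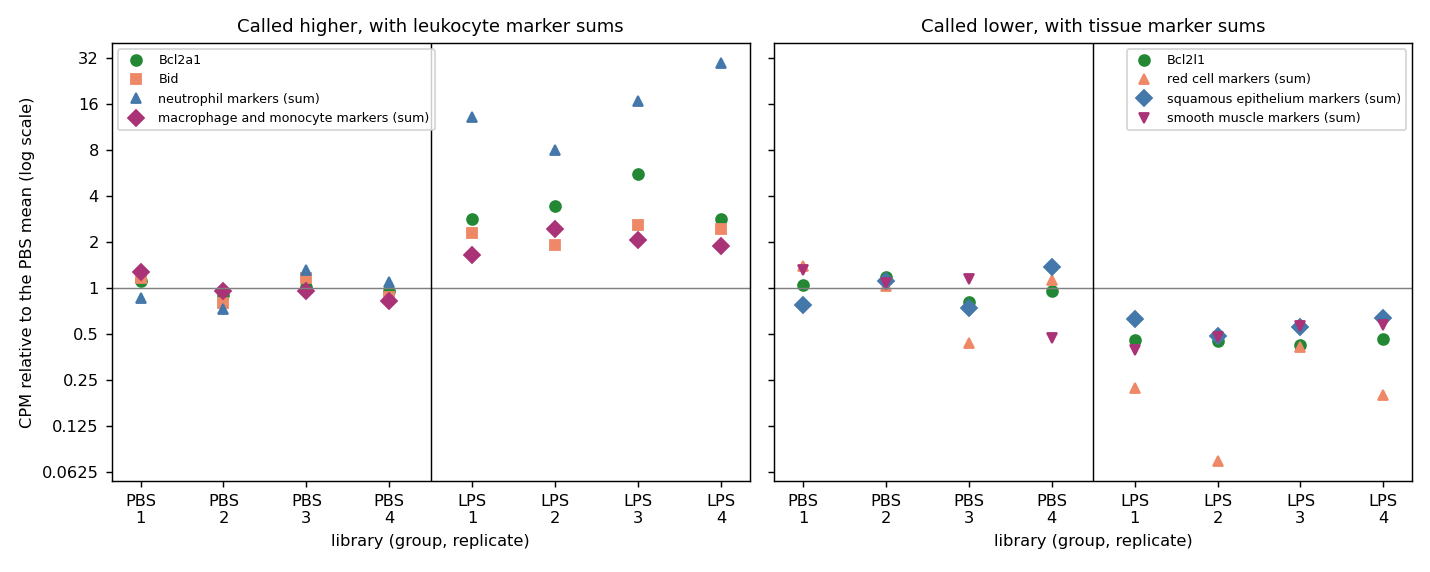
CPM relative to the PBS mean (vertical axis, log scale) by library, for Bcl2a1 and Bid with summed neutrophil and macrophage markers (left), and for Bcl2l1 with summed red cell, squamous epithelium and smooth muscle markers (right). Each point is 1 library. The neutrophil sum lies further above its PBS mean than Bcl2a1 in each LPS library. The red cell and squamous epithelium sums are lower in each LPS library than in any PBS library, and the smooth muscle sums of the groups overlap. Much of the difference in the squamous epithelium sum lies in Krt13, the only marker of that list called.

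By profile over the 8 libraries, the genes nearest to each called member were measured by the root mean square difference of log2 CPM after centring, over 13535 candidates. Nearest to Bcl2a1 were Adamts15, a matrix protease (distance 0.13), and Irak3, an inhibitor of Toll-like receptor signalling (0.14). Nearest to Bid were Nlrc4, an inflammasome sensor (0.096), and Casp1, the inflammasome protease (0.14). Nearest to Bcl2l1 were Ezr, which links membrane to actin in epithelial microvilli (0.14), and Naa80, which acetylates actin (0.15). Casp1 had 21.8 ± 2.49 CPM in PBS and 51.0 ± 3.94 CPM in LPS, a log2 fold change of 1.22, next to 1.21 for Bid. Ezr had 1508 ± 153 and 700.0 ± 113 CPM, a log2 fold change of -1.11, next to -1.16 for Bcl2l1. Casp1 and Ezr were chosen by profile over these same libraries, so fold changes near those of the members follow from the choice.

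Reads of genes that overlap a member could not be told apart, since the strand setting is not given in the sources used here. In the RefSeq table RGD1560775 overlaps Bcl2a1 and had 2 to 21 counts per library, against 206 to 1415 for Bcl2a1. Acoxl overlaps Bcl2l11 and had 0 to 3 counts, and the long non-coding LOC120098811 overlaps Bak1 and had 0 to 32. LOC120096229, which overlaps Bcl2, had 0 to 3. A ribosomal protein pseudogene, Rps2-ps43, overlaps Bcl2l1, and it and LOC134481474, which overlaps Bcl2, had no row.

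Of 13 further genes with a BH domain or a related sequence, 12 were tested. Of these, 0 were called higher and 3 lower, with a median log2 fold change of -0.16. The shares over all genes were 9.49% higher and 7.45% lower. Bcl2l15, a weakly pro-death member found in epithelia, fell from 3.86 ± 1.21 to 0.849 ± 0.413 CPM (log2 fold change -2.18, SE 0.38, edgeR adjusted p = 0.00728). The BH3-only gene Bik fell by 0.76 on the log2 scale (adjusted p = 0.0401) and the third effector-like gene Bok fell by 0.74 on that scale (adjusted p = 0.0424). After removal of PBS replicate 2 or PBS replicate 3, or of LPS replicate 1, 2 or 3, or with PBS replicate 1 and LPS replicate 2 both left out, only Bcl2l15 was called lower. The call of Bok was lost also without PBS replicate 1 or LPS replicate 4, and that of Bik without PBS replicate 4. The hypoxia-induced mitophagy receptor Bnip3, named after its values were seen, had 31.2 ± 8.64 and 70.5 ± 36.5 CPM (log2 fold change 1.18, adjusted p = 0.0652) and was called without LPS replicate 2 (log2 fold change 1.39, adjusted p = 0.0335).

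Downstream of the mitochondrion, 5 of 18 caspase, apoptosome and IAP genes were called higher and 0 lower (median 0.23). Over all genes these shares were 9.49% and 7.45%. Birc3, an IAP of the TNF receptor complex and an NF-kB target, rose from 6.17 ± 1.21 to 50.1 ± 24.7 CPM, a log2 fold change of 3.02 (edgeR, adjusted p = 0.00124). Htra2, a mitochondrial protease that binds IAPs, rose by 0.55 on the log2 scale (adjusted p = 0.00930). Apaf1, the scaffold of the apoptosome, named after its values were seen, rose by 0.38 on the log2 scale (adjusted p = 0.0366). Without PBS replicate 2 or PBS replicate 3 the count was 3, and Apaf1 was among those lost. The call of Apaf1 was lost also without PBS replicate 1 or LPS replicate 1, 2 or 3. Cytochrome c itself, Cycs, had a log2 fold change of 0.25 (adjusted p = 0.124).

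Upstream of Bid, 3 of 12 death receptor and adaptor genes were called higher and 0 lower (median 0.22), beside 9.49% and 7.45% of all genes. The death receptor Fas rose from 7.15 ± 0.953 to 15.5 ± 3.36 CPM, a log2 fold change of 1.12 (edgeR, adjusted p = 0.00477). The TNF receptor Tnfrsf1a rose from 116 ± 8.18 to 189 ± 41.8 CPM (a log2 difference of 0.70, adjusted p = 0.0142, edgeR). Traf2, an adaptor of that receptor, rose by 0.45 on the log2 scale (adjusted p = 0.0258), and it missed the threshold when PBS replicate 1, 2 or 3 or LPS replicate 2 or 4 was left out. Casp8, which cuts BID, had 37.2 ± 5.78 CPM in PBS and 36.8 ± 1.53 CPM in LPS (log2 fold change -0.014, adjusted p = 0.949).

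Of 15 p53 pathway genes, 2 were called higher and 2 lower (median -0.12), beside 9.49% and 7.45% of all genes. Gadd45a, a stress sensor of DNA damage, fell from 265 ± 34.3 to 101 ± 17.7 CPM (a log2 difference of -1.39, edgeR adjusted p = 0.000995) and the cyclin-like Ccng1 fell by 0.41 on that scale (adjusted p = 0.00812). Sesn2, named after its value was seen, rose by 0.47 on the log2 scale (adjusted p = 0.0197) and missed the threshold when PBS replicate 3 was left out. With PBS replicate 1 and LPS replicate 2 both left out, 1 gene of this list was called higher. The cell cycle inhibitor Cdkn1a (log2 fold change -0.53, adjusted p = 0.134) and Mdm2 (log2 fold change -0.054, adjusted p = 0.812) did not pass, as Bbc3, Pmaip1 and Bax among the members did not.

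Of 15 genes for transcription factors that act on BH3-only or survival genes and for their readouts, 5 were called higher and 1 lower (median 0.24). Over all genes these shares were 9.49% and 7.45%. Ddit3, the stress factor CHOP, rose from 11.3 ± 1.66 to 22.2 ± 4.92 CPM, a log2 fold change of 0.98 (edgeR, adjusted p = 0.00820). Tp73, a relative of p53, rose from 1.11 ± 0.321 to 3.05 ± 0.570 CPM (a log2 difference of 1.46, adjusted p = 0.0108), and Stat3, which acts on survival genes, rose by 0.69 on that scale (adjusted p = 0.0138). Named after their values were seen, Nfkb1 rose by 0.62 on the log2 scale (adjusted p = 0.0141) and Trib3 by 2.11 (adjusted p = 0.0423), and Foxo1, which acts on Bcl2l11, fell by 0.71 (adjusted p = 0.0257). The call of Foxo1 was lost, leaving 0 lower, when PBS replicate 1, PBS replicate 2, LPS replicate 3 or LPS replicate 4 was left out, or with PBS replicate 1 and LPS replicate 2 both left out, and that of Trib3 without any one of the PBS libraries, LPS replicate 3 or LPS replicate 4. Rela (log2 fold change 0.12, adjusted p = 0.359), Rel (-0.13, adjusted p = 0.680) and Foxo3 (-0.029, adjusted p = 0.914) did not pass.

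**Figure D5:**
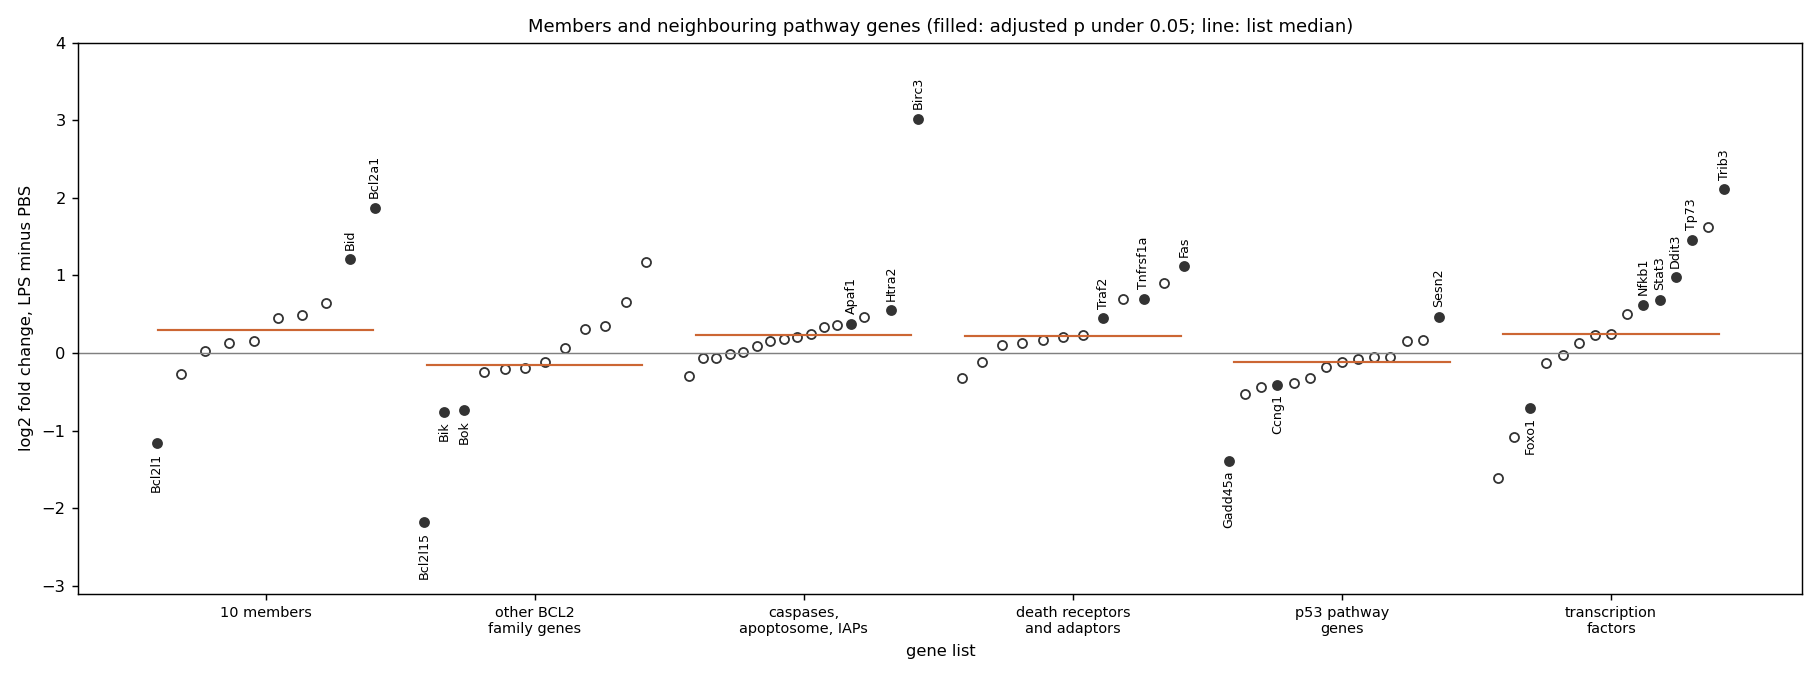
Log2 fold change, LPS minus PBS (vertical axis), of the 10 members and of tested genes of 5 neighbouring lists, without 3 genes that are not reported. Each point is a gene, filled and named where the adjusted p is under 0.05, and the line is the median of the whole list, which runs from -0.16 to 0.30.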

How the data were processed

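RNA of whole cervix was sequenced in 8 libraries, 4 per group. The values are raw read counts per gene, as the authors deposited them, and were not altered. Per the submitters' processing notes, the tools were fastp, HISAT2, HTSeq and R (3.2.0) and the build was mRatBN7.2, with no role stated for each. Annotation and strand setting: not given in the sources used here. Each column was assigned by its library name, which the labels pair with a sample. LPS replicate 4 is the library numbered 5 in its name, so its replicate number, from the title, differs from its library number.

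Genes were kept by filterByExpr by group, scaled by TMM and tested with edgeR 4.0.16 (R 4.3.3, robust quasi-likelihood F test, no covariate, Benjamini-Hochberg adjustment over 16117 genes, threshold 0.05). SE is the size of a log2 fold change divided by the square root of F, and 95% intervals use the test's degrees of freedom. Levels are TMM-scaled CPM, and 3 counts were 0.0734 to 0.0899 CPM. Intervals cover the spread between libraries. Levels were not compared between genes, since no transcript lengths were used.

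The members, the lists, the tests and the alternatives were chosen with earlier results of these data known. Named were all 10 members, the 3 called genes with the lowest adjusted p of each pathway list, and the 2 nearest profiles of each called member (mean of at least 1 CPM, prior count 2). Some genes under this rule are not reported here. Any other gene named was chosen after its values were seen. The test was tested on simulated data. Tried as alternatives were other scalings (RLE, upper quartile), other filters (none, or 1 CPM or more in 4 or more libraries), limma-voom (limma 3.58.1) with and without quality weights, DESeq2 1.42.0, each library left out, the replicate number as a block, and leaving out PBS replicate 1 and LPS replicate 2. No 2 libraries of a group were copies: their chi-square per degree of freedom was 58.2 or more.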

Additional observations from a re-analysis of the deposited data

Results flagged for a closer look

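Among the 31 named genes, 3 of 62 groups of 4 libraries held a library far from the other 3, where chance alone would pick out about 1 in 20. Bax was at 26.5 CPM in PBS replicate 1 and at 22.5 to 23.0 CPM in the other PBS libraries. Tnfrsf1a was at 104 CPM in PBS replicate 4 and at 119 to 122 CPM in the other PBS libraries. Irak3, the neighbour of Bcl2a1 by profile, was at 69.1 CPM in LPS replicate 3 and at 32.1 to 37.4 CPM in the other LPS libraries. Bcl2a1 was also highest in LPS replicate 3, a match favoured by the choice of Irak3 for its nearness to Bcl2a1 over these libraries.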

How the results depend on the processing

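The calls of Bcl2a1, Bid and Bcl2l1 and their directions were the same in all 17 alternatives, with log2 fold changes of 1.60 to 1.98, 1.12 to 1.36 and -1.25 to -1.07. DESeq2 called 4 members higher, adding Bax and Bak1, and 1 of the other family genes. With 1 library left out, 2 to 3 members were higher and 1 lower, 0 to 1 of the other family genes were higher and 1 to 3 lower, 3 to 5 caspase, apoptosome and IAP genes were higher, 1 to 2 p53 pathway genes were higher, and 0 to 1 transcription factors were lower. With PBS replicate 1 and LPS replicate 2 both left out, 3 members were higher, 1 of the other family genes was lower, 1 p53 pathway gene was higher and 0 transcription factors were lower. The sign turned for 2 members far from the threshold: Bcl2l11 ranged from -0.0070 to 0.24 with 1 library left out, and Pmaip1 from -0.20 to 0.21, with 0.27 when PBS replicate 1 and LPS replicate 2 were both left out, -0.023 in limma-voom and -0.039 with quality weights. The deviations of same-numbered libraries had correlations of -0.13, -0.18, -0.088 and 0.21, the last being the highest of any LPS library with PBS replicate 4. With so few libraries per group, these values cannot settle whether the numbers are a pairing. LPS replicate 4, set with PBS replicate 4 here, is the library numbered 5 in its name. With the replicate number as a block, 1 of the other family genes was lower, 1 p53 pathway gene was higher and 2 transcription factors were lower, Bak1 was called (log2 fold change 0.48, adjusted p = 0.0220), and Pmaip1 had a value of -0.031. Over all genes, where 1529 were higher and 1200 lower, DESeq2 called 2089 lower, and the count of lower genes was 563 without PBS replicate 2 (904 higher), 752 without PBS replicate 3 and 750 without LPS replicate 3. Bcl2, with 48 to 116 counts per library, is the member most limited by depth.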
